A study of Mus musculus with 4 samples.

Results

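Heat shock chaperones were followed in RNA-seq of mouse embryonic stem cells carrying a Kdm2a knockout, set against wild-type cells. The 10 genes were Hspa1a, Hspa1b, Hspa8, Hsp90aa1, Hsp90ab1, Hspd1, Hspe1, Hsph1, Hspb1 and Dnajb1, picked by symbol as the main cytosolic and mitochondrial chaperones and found through their Entrez gene numbers among 24116 genes in the count table. All 10 passed the filter on low counts, which left 14194 genes for testing. Kdm2a encodes a demethylase of histone H3 lysine 36. The knockout group had 2 libraries from a Kdm2a-/- line expanded from a single clone after transfection of a guide RNA and sorting of GFP+ cells, and the wild-type group had 2 libraries of cells labelled wild type. All cells carried the strain label 12910la and grew in serum and LIF on gelatin. The titles say knockout, but the genotype label of the same samples reads "Kdm2a knocked down". The labels do not tell whether a group's libraries are separate cultures, and the p-values therefore reflect only how these libraries vary, which may be technical.

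Heat shock proteins keep other proteins folded. HSP70 proteins (Hspa1a, Hspa1b, Hspa8) bind unfolded stretches, J-domain proteins such as Dnajb1 deliver clients to them, and Hsph1, an HSP110 protein, releases their nucleotide. HSP90 proteins (Hsp90aa1, Hsp90ab1) mature signalling proteins and transcription factors, Hspd1 and Hspe1 form the folding chamber of mitochondria and its lid, and the small protein Hspb1 holds unfolded proteins without using ATP. Hspa8 and Hsp90ab1 are made at all times, whereas Hspa1a, Hspa1b, Hsph1, Hspb1 and Dnajb1 are strongly induced when the factor HSF1 binds heat shock elements, which are inverted repeats of the triplet GAA.

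These elements are shown first because they are what the promoters of several of the chaperones share. Promoter windows of 250 bases before to 50 bases after each start site came from RefSeq (GRCm38.p6) and covered 7 of the 10 genes, all but Hspa8, Hsp90aa1 and Hsp90ab1. They were searched for 2 facing triplets (GAANNTTC or TTCNNGAA, each its own reverse complement) and for 3 alternating triplets (GAANNTTCNNGAA on either strand, which contains 2 overlapping copies of the shorter motif). The shorter motif lay in a window of 6 of the 7 chaperones and of 17.0% of all 27025 genes with a window (15.1% of 32851 windows). The longer one lay in 3 of the 7 and in 0.662% of all genes (0.603% of windows). The chaperones in these counts are not independent. As given below, Hspe1 and Hspd1 share 1 site, and Hspa1a and Hspa1b are near-identical copies. A match is a description of these letters and not a shown binding site. In each sequence the triplets of the matches are in capitals, and all are written 5′ to 3′ on the strand of the gene.

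Hspe1 and Hspd1 run in opposite directions from start sites 215 bases apart on chromosome 1 (55087932 for Hspd1, 55088148 for Hspe1), and a run of 4 alternating triplets at chr1:55088053-55088082 lies between them. It is the same site read from either strand, 3 overlapping matches of the shorter motif. It lies in the first exon of an alternative Hspd1 transcript in the GENCODE annotation. The Hsph1 site, chr5:149636279-149636308 on the minus strand, lies in the annotated first exon of that gene. Hsph1 also has a separate match of the shorter motif, TTCTCGAA, which is not printed below. It lies upstream, at -54 to -47 from the start site at 149636315 and -33 to -26 from the one at 149636336.
Hspe1 (plus strand): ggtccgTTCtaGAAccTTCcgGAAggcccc
Hspd1 (minus strand): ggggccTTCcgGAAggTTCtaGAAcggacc
Hsph1 (minus strand): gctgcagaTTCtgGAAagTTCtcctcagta

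The upstream 250 bases of Hspb1, Hspa1b and Hspa1a are shown whole because they lie outside annotated exons and, for the Hspa1 pair, because the copies are so alike. Hspb1 (chr5:135887669-135887918, plus strand) has 2 separate matches, from 117 and from 97 bases before its start. Hspa1b (chr17:34959239-34959488, minus strand) and Hspa1a (chr17:34972157-34972406, minus strand) each have 1 match, 104 bases before the start, and are identical at 247 of 250 positions (98.8%). Dnajb1 had no match in its 2 windows.
Hspb1: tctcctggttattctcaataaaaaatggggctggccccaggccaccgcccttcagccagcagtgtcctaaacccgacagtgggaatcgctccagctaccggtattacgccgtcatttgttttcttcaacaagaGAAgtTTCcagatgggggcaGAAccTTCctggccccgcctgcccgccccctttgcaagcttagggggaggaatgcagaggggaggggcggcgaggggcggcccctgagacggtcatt
Hspa1b: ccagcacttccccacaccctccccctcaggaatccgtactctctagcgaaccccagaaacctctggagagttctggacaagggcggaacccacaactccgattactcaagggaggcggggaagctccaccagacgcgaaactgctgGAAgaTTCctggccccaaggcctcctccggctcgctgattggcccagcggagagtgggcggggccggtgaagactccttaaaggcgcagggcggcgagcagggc
Hspa1a: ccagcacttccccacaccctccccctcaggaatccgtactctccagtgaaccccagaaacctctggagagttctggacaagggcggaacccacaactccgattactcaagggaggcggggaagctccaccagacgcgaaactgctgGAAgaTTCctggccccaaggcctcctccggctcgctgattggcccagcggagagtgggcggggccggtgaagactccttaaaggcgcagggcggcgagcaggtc

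Total counts were 18844246 to 19056529 per library. The targeted gene, Kdm2a, had 3710 and 4753 counts in the libraries labelled knockout against 2899 and 3554 in wild type. It was thus no lower under the knockout label, and all directions of change are those of the labels. Over the tested genes, knockout 1 correlated better with wild type 1 (r = 0.984) and wild type 2 (r = 0.978) than with knockout 2 (r = 0.952, across genes, which are not independent). The wild-type pair gave 0.968. Pairing knockout 2 with wild type 1 gave 0.938, and pairing it with wild type 2 gave 0.959. Every pair that included knockout 2 thus lay below every pair that did not. Results are therefore also given without single libraries. The ES cell identity matched the label in all 4 libraries: 8 markers, Pou5f1 to Dppa5a, summed to 5597 and 4811 CPM (TMM-scaled counts-per-million) in knockout and 5225 and 5328 CPM in wild type. Other cell types were low: neural markers summed to 70.5 and 37.2 CPM in knockout and 49.2 and 34.9 CPM in wild type, mesoderm markers to 10.9 and 27.2 CPM in knockout and 13.3 and 17.3 CPM in wild type, and endoderm markers to 7.89 and 9.90 CPM in knockout and 11.2 and 4.30 CPM in wild type. Trophoblast markers summed to 0.836 and 0.825 CPM in knockout and 0.941 and 0.311 CPM in wild type. Feeder and fibroblast markers summed to 36.6 and 20.0 CPM in knockout against 45.5 and 20.7 CPM in wild type, most of it Thy1, and Lum had 0 counts. The part of these markers in the results was not tested.

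Chaperone RNA took up a sizeable part of these cells' messages. The 10 genes together held 1.80% and 1.52% of all counts in the knockout libraries, against 1.56% and 1.64% in wild type, so knockout 2 lay below and knockout 1 above both wild-type libraries. After TMM scaling the sums were 17931 and 15807 CPM in knockout against 15517 and 16036 CPM in wild type, and knockout 2 lay between the wild-type libraries. Hsp90ab1, Hspa8 and Hsp90aa1 made up 86.9% to 91.8% of that. The other 7 genes, a grouping made after their values were seen, summed to 1639 and 2070 CPM in knockout against 1274 and 1526 CPM in wild type, and there the groups did not overlap.

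Scaled for exon length, the genes spanned more than 3 orders of magnitude. Per kilobase of exon, Hsp90ab1 stood at 2510 to 2955 CPM over the 4 libraries, exceeded by 1 gene among 13532 with a known length. Hspa8 (1143 to 1604 CPM per kilobase) and Hsp90aa1 (1036 to 1164) followed and overlapped each other. Hspb1 came next (422 to 738), then Hspd1 (184 to 296) and Hspe1 (188 to 249), which overlapped, as did Dnajb1 (28.5 to 43.9) and Hsph1 (18.1 to 45.4) below them. The inducible HSP70 genes were the lowest, at 2.98 to 8.38 for Hspa1b and 0.175 to 0.881 for Hspa1a. Transcript pieces shared with other genes, described further on, can move these levels.

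**Figure D1:**
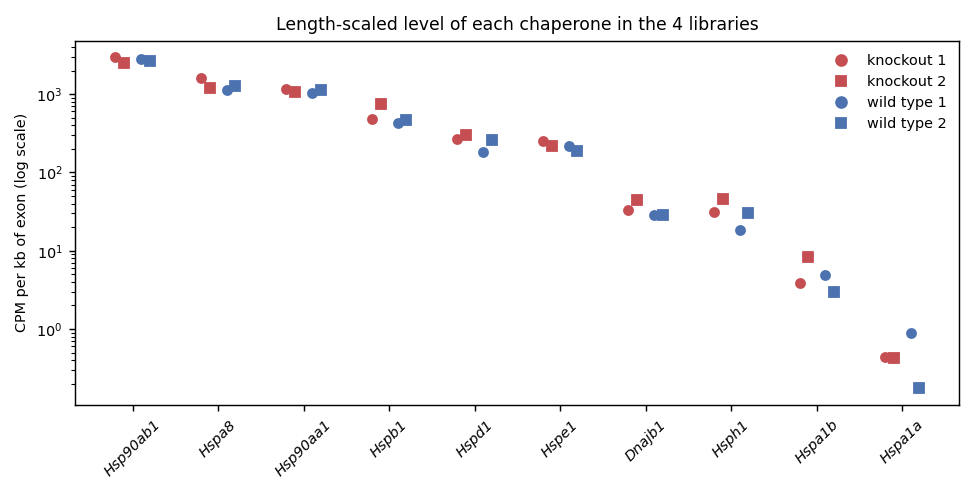
CPM per kilobase of exon (log scale) of the 10 chaperones in the knockout libraries (red) and the wild-type libraries (blue), ordered by mean level. Hsp90ab1 lies at 2510 to 2955 in every library and Hspa1a below 1, and the spread between the groups is small beside the spread between genes.

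None of the 10 chaperones passed the test between knockout and wild type. The edgeR quasi-likelihood test with Benjamini-Hochberg adjustment called 0 of 10 at an adjusted p under 0.05, beside 0 of all 14194 genes tested (0%). At an unadjusted p under 0.05 it also held 0 of the 10, where 242 genes (1.7%) did. DESeq2 called 0 of the 10 and 2 genes in all (0.0141%), and the edgeR likelihood ratio test 0 and 4 (0.0282%). As a description, 8 of the 10 log2 fold changes (knockout minus wild type) were positive, with a median of 0.29, where 50.5% of all genes were positive and their median was 0.00289. The number of positive chaperones was 6 without knockout 1 and 10 without wild type 1, and the median was 0.16 without knockout 2. For 4 of the 10, both knockout libraries lay above both wild-type libraries, and for 0 of the 10 below, where 11.7% of all genes did so upward and 12.7% downward (24.4% in all). The highest value was in a knockout library for 9 of the 10 genes, and the lowest was in wild type 1 for 6 of them. These 2 counts were not made over all genes, and 2 of the 4 libraries are knockout, so they only describe the 10.

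**Figure D2:**
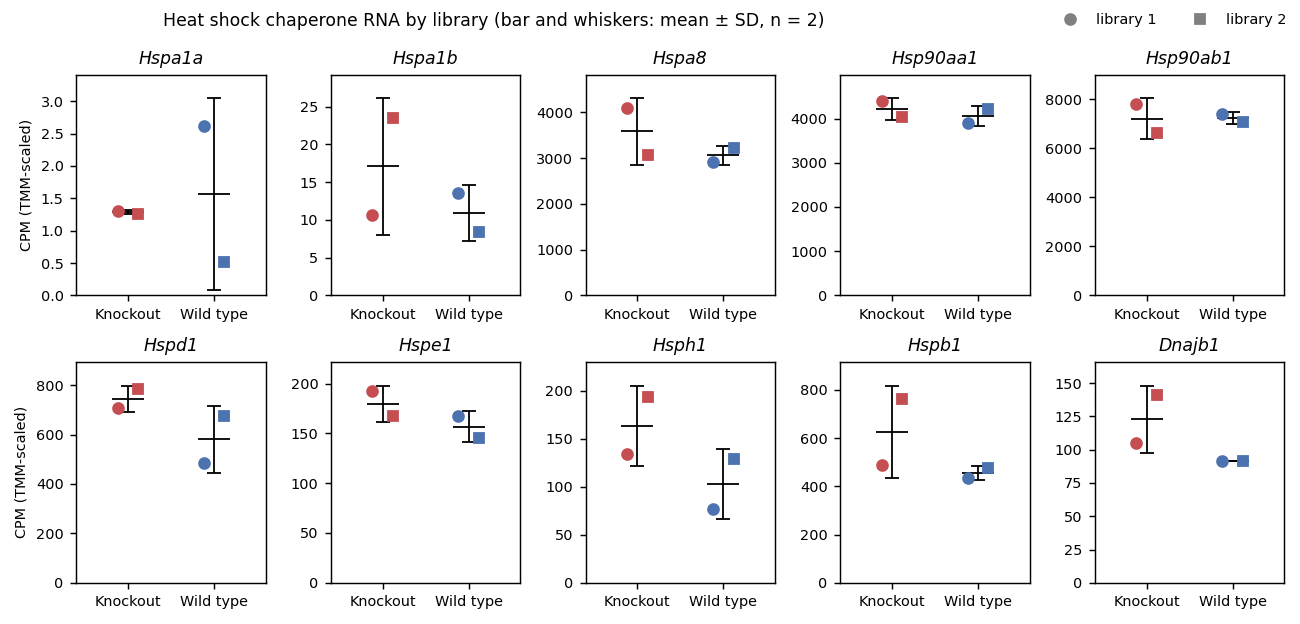
TMM-scaled CPM of each chaperone in the knockout libraries (left, red) and the wild-type libraries (right, blue), with points for single libraries and mean ± SD (n = 2). Only in the panels of Hspd1, Hsph1, Hspb1 and Dnajb1 do both knockout points lie above both wild-type points.

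Hsph1, the nucleotide exchange factor of the HSP110 family (Entrez gene 15505, chromosome 5, 149616843 to 149636498), had the largest log2 fold change and the lowest p of the 10. It had 134 and 193 CPM in knockout against 77.3 and 129 CPM in wild type. Knockout 1 lay close above wild type 2, and the groups did not overlap. The log2 fold change was 0.67 (SE 0.32, 95% interval -0.09 to 1.42), or 1.59-fold, with adjusted p = 1.00 by edgeR's quasi-likelihood test. Its value depended on single libraries, at 0.91 without knockout 1 and 0.38 without knockout 2, and at 0.35 without wild type 1 and 1.09 without wild type 2.

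Hspb1, which encodes the small heat shock protein of the mouse known as HSP25 (Entrez gene 15507, chromosome 5, 135887919 to 135889563), had 489 and 761 CPM in knockout and 435 and 475 CPM in wild type. Knockout 2 stood apart, and knockout 1 was just above wild type 2. The log2 fold change was 0.46 (SE 0.26, 95% interval -0.15 to 1.07; edgeR adjusted p = 1.00). It was 0.74 without knockout 1 and 0.11 without knockout 2.

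Dnajb1, the J-domain protein that hands clients to HSP70 (Entrez gene 81489, chromosome 8, 83608175 to 83612653), had 105 and 141 CPM in knockout against 91.3 and 91.4 CPM in wild type. The wild-type libraries were nearly equal and both knockout libraries lay above them. The mean was 123 ± 25.5 CPM in knockout and 91.4 ± 0.0537 CPM in wild type (SD, n = 2 each), with a log2 fold change of 0.43 (SE 0.24, 95% interval -0.14 to 0.99; edgeR adjusted p = 1.00). Without knockout 1 it was 0.62, and without knockout 2 it was 0.20.

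In mitochondria, Hspd1, the chamber subunit HSP60 (Entrez gene 15510, chromosome 1, 55077833 to 55088243), had 706 and 783 CPM in knockout against 486 and 676 CPM in wild type. The groups did not overlap, but wild type 2 was nearer to knockout 1 than to wild type 1. Its log2 fold change was 0.36 (SE 0.23, 95% interval -0.19 to 0.91; edgeR adjusted p = 1.00), and 0.14 without wild type 1 and 0.62 without wild type 2.

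Hspe1, the lid HSP10 (Entrez gene 15528, chromosome 1, 55088148 to 55091317), had 193 and 167 CPM in knockout against 168 and 146 CPM in wild type. Knockout 2 fell just under wild type 1, so the groups overlapped. With RLE scaling, for which the share over all genes was not counted, they did not, which brought the number of non-overlapping chaperones to 5. The log2 fold change was 0.20 (SE 0.22, 95% interval -0.31 to 0.71; edgeR adjusted p = 1.00), and 0.09 without knockout 1, 0.30 without knockout 2, 0.31 without wild type 1 and 0.11 without wild type 2. Although the pair starts from 1 short stretch of DNA, the ratio of Hspd1 to Hspe1 per kilobase of exon was not constant, at 1.07 and 1.37 in knockout against 0.847 and 1.36 in wild type. Both libraries numbered 1 had the lower ratio.

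The abundant constitutive chaperones differed little. Hsp90ab1, the HSP90 made at all times (Entrez gene 15516, chromosome 17, 45567778 to 45573261), had 7808 and 6631 CPM in knockout and 7421 and 7087 CPM in wild type, so that the knockout libraries bracketed the wild-type ones. Its log2 fold change was -0.01 (SE 0.19, 95% interval -0.45 to 0.44; edgeR adjusted p = 1.00), which bounds the change to between 0.73-fold and 1.36-fold under this model. Hsp90aa1, the more inducible HSP90 (Entrez gene 15519, chromosome 12, 110691036 to 110696395), had 4386 and 4034 CPM in knockout and 3902 and 4209 CPM in wild type. These groups overlapped, with a log2 fold change of 0.05 (SE 0.19, 95% interval -0.38 to 0.49; edgeR adjusted p = 1.00). Per kilobase of exon, Hsp90ab1 exceeded Hsp90aa1 by 2.54 and 2.34 times in knockout and by 2.71 and 2.40 times in wild type.

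Hspa8, the constitutive HSP70 also called HSC70 (Entrez gene 15481, chromosome 9, 40801276 to 40805202), had 4098 and 3071 CPM in knockout and 2920 and 3214 CPM in wild type. Knockout 1 stood apart here and knockout 2 fell between both wild-type values, whereas for Hspb1 it was knockout 2 that stood apart. The log2 fold change was 0.22 (SE 0.22, 95% interval -0.28 to 0.73; edgeR adjusted p = 1.00). It was -0.000623 without knockout 1 and 0.42 without knockout 2.

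The stress-inducible HSP70 genes were at low levels. Hspa1b (Entrez gene 15511, chromosome 17, 34956429 to 34959238) had 205 and 427 counts in knockout and 259 and 161 counts in wild type. Hspa1a (Entrez gene 193740, chromosome 17, 34969359 to 34972156) had 25 and 23 counts in knockout and 50 and 10 counts in wild type. The groups overlapped for both, and for Hspa1a the wild-type libraries enclosed both knockout libraries. The log2 fold change of Hspa1b was 0.64 (SE 0.48, 95% interval -0.49 to 1.78) and that of Hspa1a was -0.28 (SE 0.82, 95% interval -2.22 to 1.65), both at adjusted p = 1.00 by edgeR's quasi-likelihood test. Hspa1b was 1.10 without knockout 1, -0.02 without knockout 2, 1.03 without wild type 1 and 0.34 without wild type 2. Hspa1a turned to 1.30 without wild type 1, and was -1.01 without wild type 2.

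The copies were also counted together, since reads may have been split between them. Their sum was 230 and 450 counts (12.0 and 24.7 CPM) in knockout and 309 and 171 counts (16.1 and 8.87 CPM) in wild type. Knockout 2 was the highest library and wild type 2 the lowest, with overlap between the groups. The log2 fold change of the sum was 0.55 (SE 0.48, 95% interval -0.58 to 1.69; edgeR adjusted p = 1.00). It was -0.05 without knockout 2, 0.98 without knockout 1, 1.05 without wild type 1 and 0.19 without wild type 2. Hspa1a made up 10.9% and 5.11% of the sum in knockout and 16.2% and 5.85% in wild type. In CPM, Hspa8 exceeded the sum by 341 and 124 times in knockout and by 181 and 362 times in wild type.

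For all 10 chaperones, the gap between the libraries of 1 label, on the log2 CPM scale, was larger in knockout or in wild type than the size of the log2 fold change. This was not counted over all genes, so it only describes the 10. For Dnajb1 the gap and the change were nearly equal, with 0.427 between the knockout libraries beside a log2 fold change of 0.43. They were close for Hspe1 as well. Without knockout 1, Hspa1b, Hspb1 and Hsph1 had an unadjusted p under 0.05 (0.0314, 0.0294 and 0.0271), as did 1843 of all 14714 genes in that fit (12.5%). None of the 10 passed after adjustment (the lowest adjusted p was 0.317, edgeR), where 91 genes (0.618%) did. Without knockout 2, 0 of the 10 and 8 genes (0.0549%) were called. Without wild type 2, Hspd1 and Hsph1 had an unadjusted p of 0.0409 and 0.0126 (adjusted p = 0.999 each, edgeR). In that fit 379 of 14647 genes (2.59%) had an unadjusted p under 0.05 and 0 genes were called (0%).

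**Figure D3:**
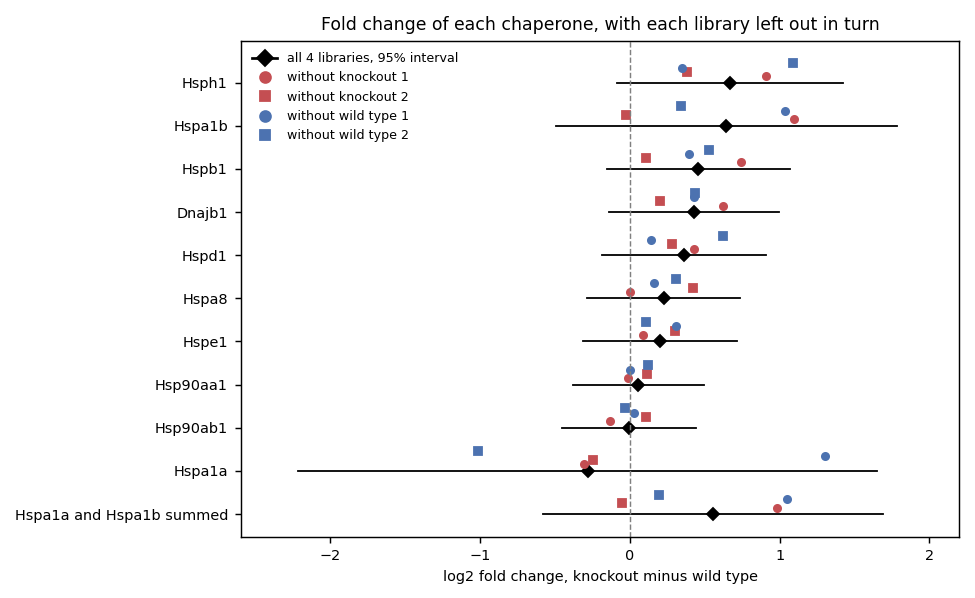
Log2 fold change of each chaperone and of the Hspa1a and Hspa1b sum (diamonds, lines give the 95% interval), with the value after leaving out each library (red for a knockout library, blue for a wild-type one). Every interval includes 0, and Hsph1, Hspb1, Dnajb1, Hspd1 and Hspe1 keep positive values whichever library is left out. For Hsph1, Hspb1, Dnajb1 and Hspd1 this largely follows from their non-overlapping groups, and it was not counted over all genes.

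Much of this family shares its sequence with other genes, which bears on how its reads could be assigned. Reads were 50 bases long per the labels, so each 50-base window of a chaperone's longest coding transcript was looked up in all GENCODE transcripts of GRCm38. For Hspa8, 74.8% of windows also occurred in a transcript of another gene, most of them in Gm15459. Hspa1a shared 66.3% of its windows and Hspa1b 62.3%, with 1716 windows common to the pair. The shares were 58.5% for Hsp90aa1, chiefly with Gm12346, and 51.6% for Hspb1, all with Hsp25-ps1. They were 44.8% for Hspe1, chiefly with AC117239.2, and 44.8% for Hspd1, chiefly with Hspd1-ps3. Of the Hspe1 windows, 63 also occurred, on either strand, in a transcript of Hspd1. Hsp90ab1 shared 4.49%, Dnajb1 0.441% and Hsph1 none of 3753. Hsph1 and Dnajb1, which had non-overlapping groups, are thus nearly free of such windows, whereas Hspb1 and Hspd1 are not. How reads matching several places were counted is not given in the sources used here, and its part in the levels was not tested.

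**Figure D4:**
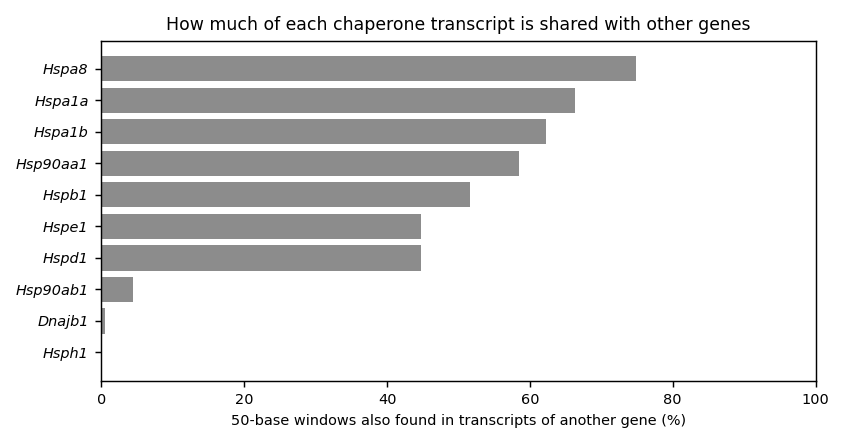
Share of the 50-base windows of each chaperone's longest coding transcript that also occur in a transcript of another gene. Hspa8 has the largest share at 74.8%, while Hsp90ab1, Dnajb1 and Hsph1 are below 5%.

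The factors that induce these genes were at moderate levels. Hsf1, the main heat shock factor, had 48.2 and 55.3 CPM in knockout and 43.7 and 53.2 CPM in wild type (log2 fold change 0.09, SE 0.25). Hsf2, a factor that can pair with it, had 59.0 and 56.3 CPM in knockout and 56.5 and 61.0 CPM in wild type (log2 fold change -0.03, SE 0.23), and Hsbp1, which restrains HSF1, was at -0.13 (SE 0.31). The groups overlapped for these 3 genes. Of 5 tested genes in this list, which counts Hsbp1 with the factors, 0 passed. Hsf4, named after its values were seen, had 4.86 and 11.1 CPM in knockout and 4.28 and 2.28 CPM in wild type, with non-overlapping groups (log2 fold change 1.27, SE 0.58; edgeR adjusted p = 1.00). Of 6 listed, Hsf3 stayed below the filter.

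In the other chaperone and related lists, 0 of 99 tested genes passed in either direction. There were 49 positive and 50 negative fold changes, with a median of -2.98e-05. Beside chaperones and co-chaperones, the 99 include heat shock factors, Hsbp1, mitochondrial proteases and genes induced by heat or cold. Markers of cell types are not counted. Of the 99 genes, 7 were non-overlapping and higher in knockout and 6 lower, where 11.7% of all genes tested were higher and 12.7% lower. Among the other HSP70 and HSP110 genes, 5 of 11 were positive, led in abundance by Hspa9, the HSP70 of mitochondria (948 and 995 CPM in knockout, 858 and 854 CPM in wild type), and Hspa4, an HSP110 (763 and 716 CPM in knockout, 606 and 750 CPM in wild type). Hspa9 was among the non-overlapping genes, at a log2 fold change of 0.18 (SE 0.19), and Hspa4 was not. The other HSP90 genes, Hsp90b1 of the endoplasmic reticulum (-0.10, SE 0.21) and Trap1 of mitochondria (-0.03, SE 0.20), both overlapped.

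No co-chaperone passed the test. Of 21 J-domain proteins, 13 were positive with a median log2 fold change of 0.01, and the most abundant were Dnaja2 (0.03, SE 0.21) and Dnajc8 (-0.01, SE 0.21). Of 12 nucleotide exchange factors and HSP70 regulators, 4 were positive with a median of -0.10. Bag6 (-0.06, SE 0.19), which guards membrane proteins on their way to insertion, and St13 (-0.01, SE 0.20), also called HIP, were the most abundant. Sil1, the exchange factor of the endoplasmic reticulum HSP70, was the only one of the 99 with an unadjusted p under 0.05 (0.0287). It had 14.0 and 8.25 CPM in knockout and 28.0 and 19.2 CPM in wild type (log2 fold change -1.09, SE 0.40; edgeR adjusted p = 1.00), and was named after its values were seen. Of 14 HSP90 co-chaperones, 7 were positive with a median of -0.00306, with Stip1, which links HSP70 to HSP90, at -0.04 (SE 0.21) and the immunophilin Fkbp4 at 0.07 (SE 0.19).

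The cytosolic chaperonin TRiC and prefoldin had a median of 0.00585, and 7 of 14 were positive. Its subunits Cct6a (0.13, SE 0.20) and Cct2 (-0.01, SE 0.19) were the most abundant. Mitochondrial proteases had 4 of 8 positive members, with Lonp1 at -0.11 (SE 0.21) and Yme1l1 at 0.09 (SE 0.21). Of 5 tested small heat shock proteins other than Hspb1, 3 were positive, and the most abundant were Hspb8 (18.2 and 53.4 CPM in knockout, 32.4 and 20.4 CPM in wild type) and Hspb6 (9.46 and 7.37 CPM in knockout, 10.3 and 6.43 CPM in wild type). Hspb8 was highest in knockout 2, as Hspb1 was, but its groups overlapped. Hspb3 had 0 counts in all libraries.

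Other genes that answer to heat or cold did not pass either. Of 5 heat-inducible genes, 3 were positive, and the most abundant were the polyubiquitin gene Ubb (-0.09, SE 0.24) and Hmox1, which encodes heme oxygenase (105 and 196 CPM in knockout, 104 and 129 CPM in wild type; 0.37, SE 0.32). The cold-inducible RNA-binding proteins split, with Rbm3 at 139 and 211 CPM in knockout and 91.2 and 139 CPM in wild type (0.61, SE 0.31) and Cirbp at 23.4 and 15.9 CPM in knockout and 24.8 and 25.8 CPM in wild type (-0.36, SE 0.32). The groups of Cirbp did not overlap, lower in knockout. Those of Rbm3 did not overlap either, higher in knockout, but knockout 1 (138.78 CPM) and wild type 2 (138.65 CPM) were practically equal.

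**Figure D5:**
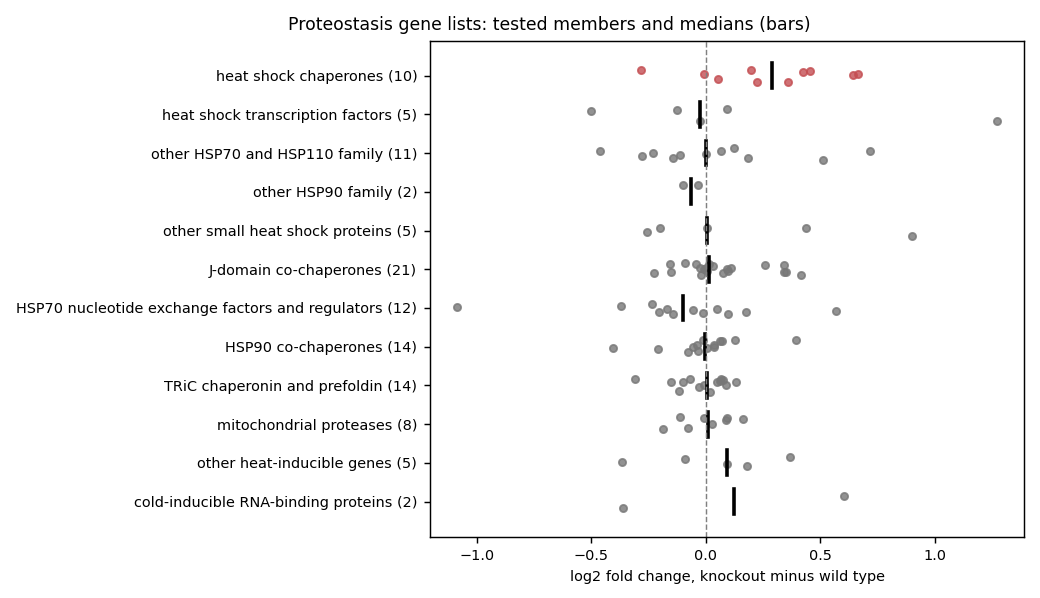
Log2 fold change (knockout minus wild type) of each tested gene in the chaperone and related lists, with the number tested in brackets, black bars at the medians and a dashed line at the median of all genes. The 10 heat shock chaperones have a median of 0.29, and the other lists have medians between -0.10 and 0.12.

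Tested genes with and without heat shock element letters had similar medians, both near 0. Of 62 tested genes with 3 alternating triplets in a promoter window, 29 (46.8%) had a positive log2 fold change, 9 were non-overlapping and higher (14.5%), 11 non-overlapping and lower, and the median was -0.03. Of 11091 tested genes with a window but without the motif, 50.8% were positive and the median was 0.00492. Of these, 1295 were non-overlapping and higher (11.7%) and 1406 non-overlapping and lower. Shares are given for the higher side only, and in both sets more genes were lower than higher. Over all genes tested, 12.7% were non-overlapping and lower. For the motif of 2 facing triplets the positive shares were 53.1% of 1536 genes with it and 50.4% of 9617 without it. The genes Hspe1, Hspd1 and Hsph1 are among the 62, and Dnajb1, whose groups did not overlap, had no match.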

How the data were processed

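RNA-seq libraries of total RNA (BGISEQ kit, random-primed cDNA, per the labels' protocols) were deposited by the authors as a table of raw counts. HISAT2, featureCounts and mm10 are named in the submitters' processing notes. The sources used here do not give versions, annotation, strand setting or the treatment of multiply matching reads. Symbols for 24061 of 24116 genes came from RefSeq (GRCm38.p6), and exon lengths of coding transcripts from GENCODE.

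Genes were kept by filterByExpr (14194), scaled by TMM and tested with edgeR 4.0.16 in R 4.3.3 (quasi-likelihood F test, genotype alone, Benjamini-Hochberg over all genes, threshold 0.05). The SE is the absolute log2 fold change over the square root of F. Log2 CPM used a prior count of 2. Depth was 18844246 to 19056529 counts per library, and a count of 0 allows up to 3 counts, 0.156 to 0.165 CPM (counting error only). Alternatives were RLE and upper quartile scaling, library totals, 2 other filters, DESeq2 1.42.0, edgeR's likelihood ratio test, blocking by replicate number and leaving out each library. The tests were tried on simulated counts. Beside the 10 chaperones, Hsf1 and Hsf2, the text names list genes past the threshold or, with none, the 2 with the highest mean CPM; exceptions are marked. Members and lists were chosen with earlier results of these data known. Of 12 annotated pseudogenes or related sequences named after a chaperone symbol, 0 had a row in the count table, so none was tested. Pseudogenes enter only through the search for shared windows.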

Additional observations from a re-analysis of the deposited data

How the results depend on the processing

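The count of 0 chaperones past the threshold held under all alternatives run. Of 119 single-gene values under alternatives, 112 kept their direction, 7 turned and 0 crossed the threshold. The count of genes past the threshold was 0 with 3 other scalings, 2 other filters and the replicate block, 2 with DESeq2 and 4 with the likelihood ratio test, and 0 to 91 with a library left out (91 without knockout 1, 8 without knockout 2). Leaving out a library moved the log2 fold change of the Hspa1a and Hspa1b sum between -0.0512 and 1.05, of Hspa1b between -0.0249 and 1.10, of Hspa1a between -1.01 and 1.30, of Hspa8 between -0.000623 and 0.42, of Hsp90aa1 between -0.00996 and 0.12 and of Hsp90ab1 between -0.13 and 0.11. Each of these left 1 library in a group, assumed to vary like the other group. The cause was not tested. A mean of at least 5 CPM removed Hspa1a.

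With the replicate block, Hspa1a turned to 0.0307, the sum was at 0.525 and the edgeR adjusted p of Hsph1 was 0.888. The unadjusted p of Hsph1 was 0.0093 by the same edgeR test. In that fit 1 of the 10 chaperones and 735 of 14194 genes had an unadjusted p under 0.05. Same-numbered libraries deviated together (r = 0.347 across genes), but 2 pairs and no label of a shared origin do not establish a pairing. Hspa1a had the lowest counts of the 10, at 10 to 50 per library.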
